A study of Rattus norvegicus and Mus musculus with 56 samples.

Results

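The genes described here are 33 mouse genes of cholesterol and fatty acid synthesis, chosen by name from the textbook pathway and matched to Ensembl identifiers. All 33 were found among 41388 mouse identifiers, and all 33 passed the filter on low counts in every fit. Poly(A) RNA was sequenced from 24 libraries of wild-type C57BL/6 mice, taken from the dorsal horn of the lumbar cord (L4:L5) 7 days after surgery. Male and female mice had either spared nerve injury (SNI), a model of neuropathic pain that severs part of the sciatic nerve's branches and spares the rest, or sham surgery. Tissue came from the ipsilateral or the contralateral side, which gives 8 groups of sex, surgery and side with 3 libraries each. The labels give no age, no number of animals behind a library and no statement of which libraries share an animal, so p-values measure the spread between libraries. The 32 rat libraries of the series were not analysed here.

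Cells make cholesterol from acetyl-CoA by the mevalonate route, which leads through isoprenoid units to squalene and then through lanosterol and a chain of sterol intermediates. Palmitate is made from citrate-derived acetyl-CoA by ATP citrate lyase, acetyl-CoA carboxylase and fatty acid synthase, and is then lengthened by elongases and unsaturated by desaturases. The SREBP transcription factors switch on most of these genes when membrane sterol is low, whereas INSIG proteins hold SREBP and its escort SCAP in the endoplasmic reticulum when sterol is high. The nervous system makes its own cholesterol behind the blood-brain barrier, and myelin is its largest store in brain and cord.

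The libraries held 27.98 to 42.9 M gene reads (M for mega), and each member had at least 531 reads in each library. All 10 markers of dorsal horn neurons were detected in every group, and so were the 8 markers of motor neurons, cells of the ventral horn. Summed motor neuron markers ran from 90.9 to 605 CPM (read counts scaled to a common library total). Summed blood markers ran from 57.9 to 492 CPM. In whole tissue, fewer cells of a type and less RNA per cell cannot be told apart. The title numbers 49 to 56 hold 2 of the 3 male SNI libraries of each side, no male sham library, and 1 of 3 female libraries of each surgery and side.

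Transcript levels of the pathway differed widely between genes when set per exon length, as RPKM (CPM per kilobase of exon). Scd2, a stearoyl-CoA desaturase, was highest at a mean of 536.8 RPKM over the 24 libraries, with a range of 448.9 to 636.8. Its relative Scd1 followed at 127.9 RPKM, and Hmgcs1, the synthase that makes HMG-CoA, came next at 102.6 RPKM. Scd2 lay above Scd1 in all libraries, whereas the library ranges of Scd1 (106.6 to 160.4 RPKM) and Hmgcs1 (81.98 to 122.3 RPKM) overlapped. Acly, ATP citrate lyase, stood at 70.19 RPKM and the delta-5 desaturase Fads1 at 62.68 RPKM. The enzymes between squalene and cholesterol were mostly lower, from Cyp51 at 31.79 RPKM to Tm7sf2, a sterol reductase, at 5.78 RPKM. Acly also varied most between libraries of the same group, with a within-group SD of 0.229 on the log2 scale, and Pmvk, phosphomevalonate kinase, varied least at 0.0544.

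**Figure D1:**
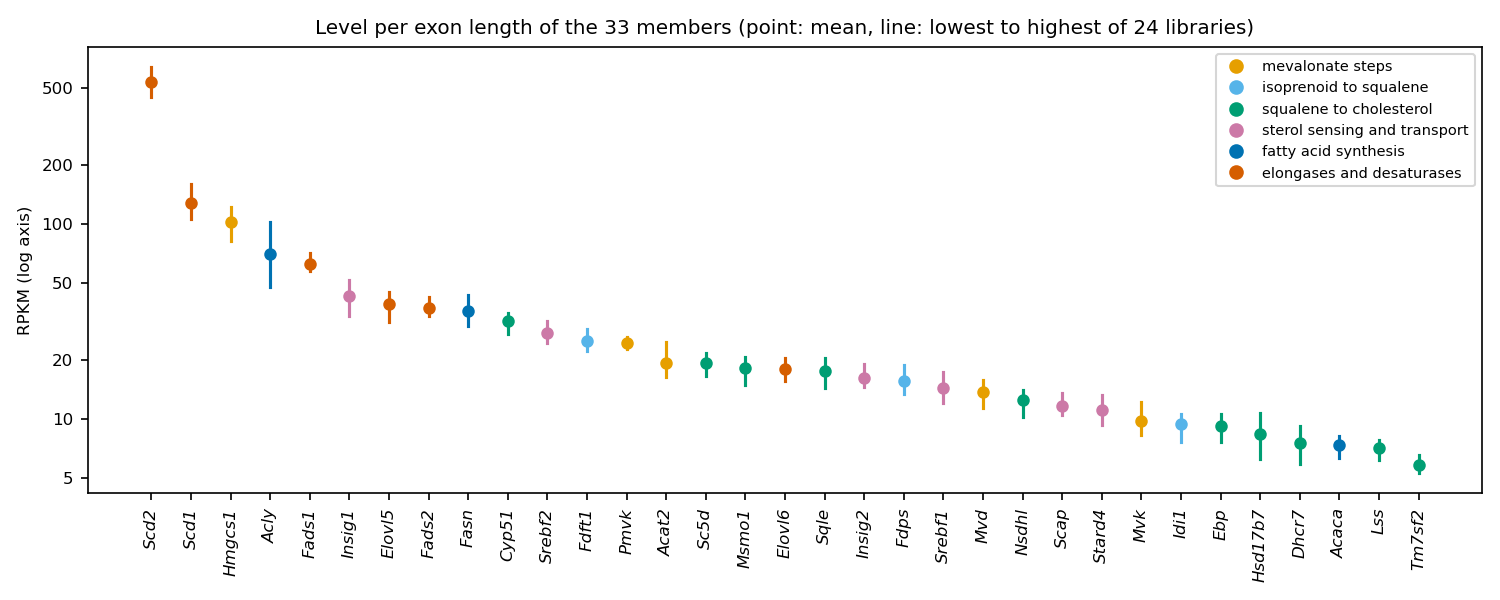
Level of each of the 33 genes per exon length (RPKM, log axis), coloured by role; points are means of 24 mouse libraries and lines run from the lowest to the highest library. Scd2 stands at 536.8 RPKM, above the range of every other member, and Tm7sf2 is lowest at 5.78 RPKM.

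On the operated side, 5 members were lower after SNI than after sham surgery and none was higher. They were Idi1, Msmo1, Elovl6, Insig1 and Cyp51, which fell by 10.1% to 13.4%. Across all 17602 genes tested in these 12 libraries, 23 were called lower (0.131%) at an adjusted p under 0.05 in limma, and 365 were called in either direction. The log2 fold change was below 0 for 24 of 33 members, with a median of -0.056, against -0.0025 over all genes tested. The tests were two-sided, with Benjamini-Hochberg adjustment over all genes.

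The first steps, from acetyl-CoA to the isoprenoid unit, held no called member. Hmgcs1 had a log2 fold change of -0.14 ± 0.055 (SE; adjusted p = 0.292), and Acat2, the cytosolic thiolase that opens the route, had -0.047 ± 0.049. The kinase Pmvk stood at -0.056 ± 0.041. Mevalonate kinase Mvk and the decarboxylase Mvd lay above 0, at 0.095 ± 0.060 and 0.052 ± 0.051.

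Idi1, the isomerase that turns isopentenyl diphosphate into the form that starts chain building (ENSMUSG00000058258, chromosome 13, 8885501 to 8892451, plus strand, GRCm38), gave the lowest value of the 33. Male sham libraries held 34.4, 35.7 and 34.9 CPM and female sham libraries 32.8, 34.4 and 33.3 CPM. After SNI, male libraries held 30.5, 30.4 and 33.2 CPM and female libraries 27.3, 30.3 and 26.7 CPM. Only male SNI library 3 reached into the sham range, above the lowest sham library. The level fell by 13.4%, a log2 fold change of -0.21 ± 0.045 (adjusted p = 0.0214). The other genes up to squalene lay in the same direction without being called. Fdps, farnesyl diphosphate synthase, had -0.13 ± 0.037 (adjusted p = 0.125) and Fdft1, squalene synthase, had -0.11 ± 0.039 (adjusted p = 0.253).

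Among the 10 enzymes from squalene to cholesterol, 2 were called lower and 9 had a log2 fold change below 0. Msmo1, the sterol C4-methyl oxidase (ENSMUSG00000031604, chromosome 8, 64718139 to 64733792, minus strand), held 115, 120.2 and 128 CPM in male sham and 119, 119 and 108 CPM in female sham libraries. The SNI libraries held 106, 111 and 109.9 CPM in males and 91.6, 102 and 98.1 CPM in females. All of them except male libraries 2 and 3 lay below the lowest sham library, female sham library 3. Msmo1 fell by 12.9%, at -0.20 ± 0.043 (adjusted p = 0.0226).

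Cyp51, the lanosterol 14-alpha-demethylase (ENSMUSG00000001467, chromosome 5, 4081145 to 4104746, minus strand), held 146, 154 and 148 CPM in male sham and 143, 143 and 135 CPM in female sham libraries. After SNI it held 134, 133 and 141 CPM in males and 121, 131 and 122 CPM in females. Within each sex, SNI libraries lay below all sham libraries, and across the sexes male SNI library 3 exceeded female sham library 3. For 3 against 3 libraries, the share of all genes that separate so was not counted. The log2 fold change of Cyp51 was -0.15 ± 0.037 (adjusted p = 0.0458).

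The other 8 enzymes of this stretch were not called. Sc5d, the sterol C5-desaturase, had -0.14 ± 0.040 (adjusted p = 0.0983), and Nsdhl, a sterol dehydrogenase that acts with Msmo1, had -0.13 ± 0.041 (adjusted p = 0.147). Squalene epoxidase Sqle had -0.078 ± 0.039, and lanosterol synthase Lss had -0.054 ± 0.058. Nearer to 0 were the reductase Dhcr7 at -0.034 ± 0.074, the isomerase Ebp at -0.014 ± 0.062 and Tm7sf2 at -0.0099 ± 0.059. Hsd17b7, the 3-keto sterol reductase, was the only gene of this stretch above 0, at 0.048 ± 0.066.

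Of the genes that sense or move sterol, Insig1 was called. Insig1 (ENSMUSG00000045294, chromosome 5, 28071363 to 28078662, plus strand) retains SREBP and is itself a target of SREBP. It held 130.3, 123 and 135 CPM in male sham and 131, 134 and 135 CPM in female sham libraries. SNI libraries held 122, 123 and 129 CPM in males, and 105, 111 and 116 CPM in females. The female groups did not overlap and the male groups did. How many of all genes separate so between the female groups was not counted, so the gap alone does not set Insig1 apart. The log2 fold change over both sexes was -0.16 ± 0.039 (adjusted p = 0.0424). Its relative Insig2 had -0.10 ± 0.049, and Stard4, a cytosolic sterol carrier, had -0.14 ± 0.052 (adjusted p = 0.253). The transcription factors themselves were not called, with Srebf1 at 0.11 ± 0.071 and Srebf2 at -0.015 ± 0.063, nor was the escort Scap at 0.035 ± 0.061.

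Fatty acid genes were mixed. Elovl6, which lengthens palmitate to stearate (ENSMUSG00000041220, chromosome 3, 129532355 to 129638495, plus strand), held 126, 113 and 116 CPM in male sham and 113, 120.2 and 113 CPM in female sham libraries. SNI libraries held 103, 109 and 104 CPM in males and 104, 103 and 101 CPM in females. All 6 SNI libraries lay below all 6 sham libraries, which among all genes tested held for 40 (0.227%), and Elovl6 was the only member with such a gap. Its log2 fold change was -0.17 ± 0.038 (adjusted p = 0.0292). Elovl5, an elongase of polyunsaturated chains, had -0.12 ± 0.054 (adjusted p = 0.365). The enzymes that make palmitate had -0.14 ± 0.12 for Acly, -0.088 ± 0.049 for acetyl-CoA carboxylase Acaca and 0.031 ± 0.073 for fatty acid synthase Fasn. All 4 desaturases lay within 0.1 of 0, with Scd1 at 0.0058 ± 0.063, Scd2 at -0.0098 ± 0.060, Fads1 at 0.031 ± 0.046 and the delta-6 desaturase Fads2 at 0.095 ± 0.056.

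These 5 calls stood close to the threshold and depended on single libraries. None was made when libraries were scaled by their totals alone, or in title numbers 33 to 48 alone, where the members' median was -0.10. Of all genes, 6 of 17602 and 2 of 17372 were called lower in those fits. No member was called without male sham library 3 or without female sham library 2, and 1 was called without male SNI library 1. Without male sham library 1, male SNI library 2 or 3, female sham library 1, or female SNI library 1 or 3 the count was 2, and without female SNI library 2 it was 3. It was 4 without female sham library 3, and 4 without male sham library 2, with Stard4 called in addition to Msmo1, Insig1 and Elovl6. The median over the members stayed between -0.084 and -0.053 when any 1 library was left out. Markers of other cell types were read in the same libraries. Oligodendrocyte markers had a log2 fold change below 0 for 12 of 12 genes (median -0.11, none called), with summed levels of 19700 to 31100 CPM in SNI and 23400 to 29700 CPM in sham libraries. Blood markers were below 0 for 9 of 9 (median -0.93, none called), with sums of 57.9 to 222 CPM against 86.1 to 490 CPM. Motor neuron markers were below 0 for 7 of 8 (median -0.81, none called, 4 with an unadjusted p under 0.05), with sums of 90.9 to 352 CPM against 155 to 461 CPM. The median of these sums was 232 CPM in SNI and 218 CPM in sham libraries, so the sums did not separate the groups. Microglial markers were called higher for 8 of 9 (median 1.02), at 570 to 904 CPM against 371 to 450 CPM. Dorsal horn neuron markers were above 0 for 10 of 10 (median 0.15), with Npy and Gal called higher, at sums of 434 to 583 CPM against 385 to 534 CPM. With the mean oligodendrocyte, motor neuron or blood marker level as a covariate, 1, 0 and 0 members were called. Of all 17602 genes, 37, 1 and 2 were called lower in these fits. The log2 fold changes of the 5 members stayed below 0.

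**Figure D2:**
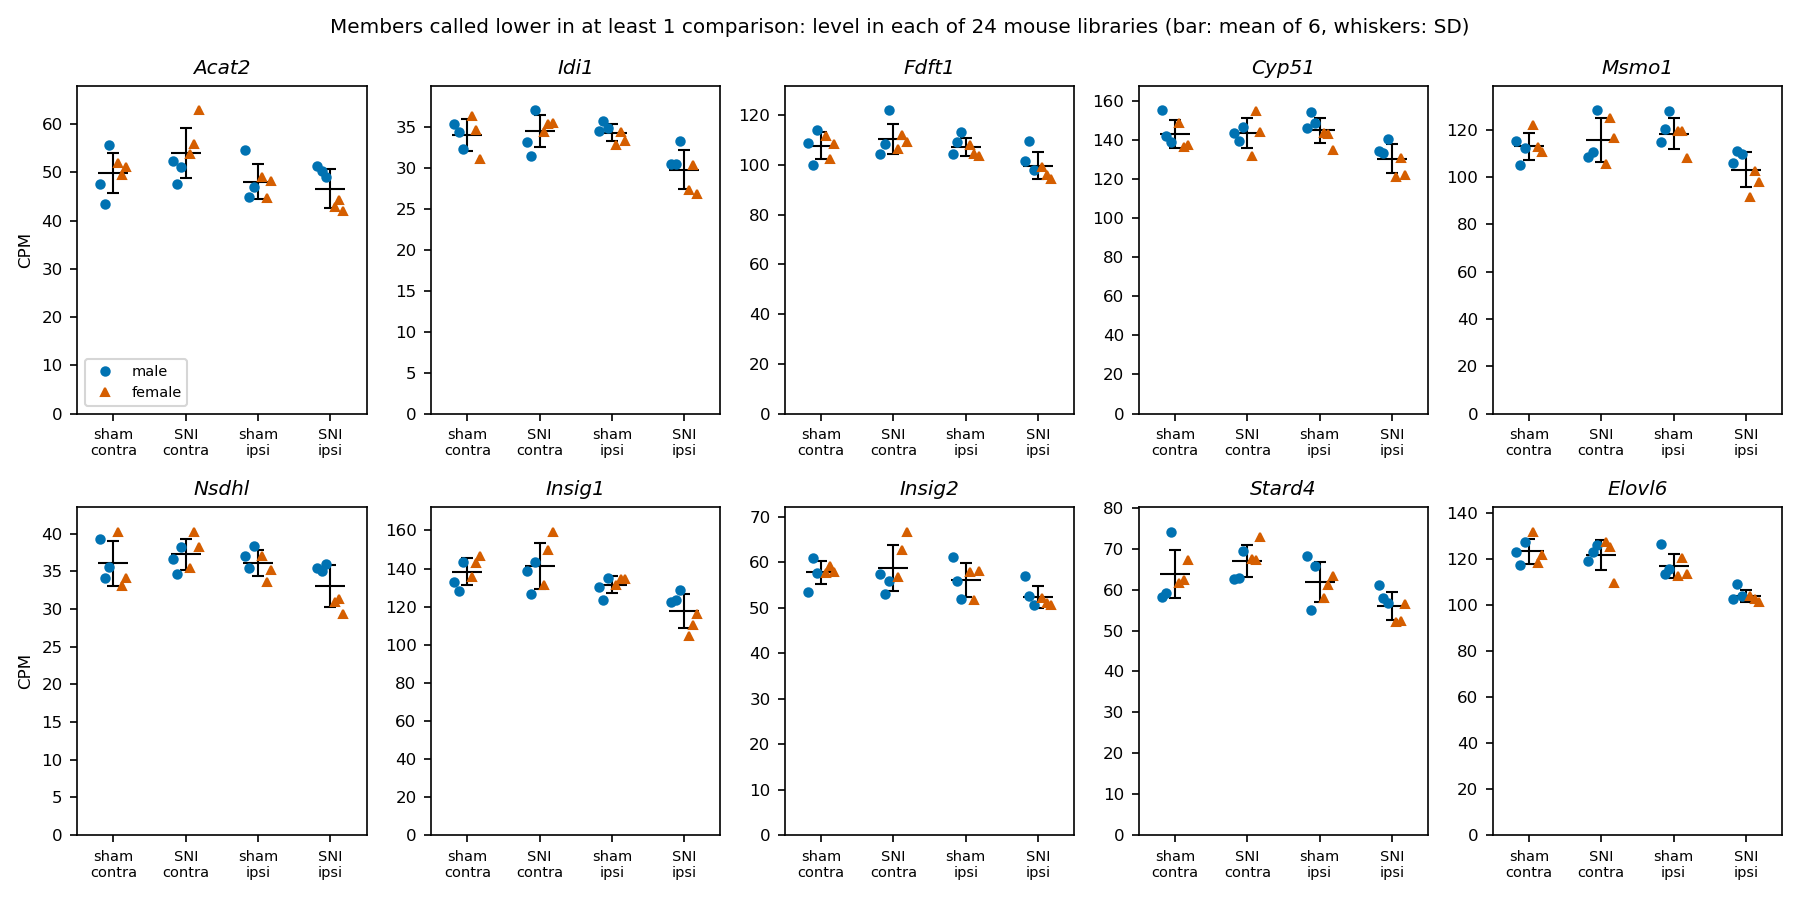
CPM of the 10 members called lower in at least 1 comparison, in each of 24 mouse libraries (circles male, triangles female); bars are means of 6 libraries and whiskers are SD. In each panel the ipsilateral SNI libraries have the lowest mean, for example 104 CPM against 117 CPM in ipsilateral sham for Elovl6 and 46.6 against 48.1 CPM for Acat2.

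The operated side was then set against the unoperated side of the mice with SNI. Here 10 members were called lower and none higher, out of 594 genes called lower (3.29%) and 643 called higher (3.56%) among 18058 tested in all 24 libraries. All 5 genes called against sham were among the 10. The median log2 difference of the members was -0.099, against 0.0044 over all genes tested, and 26 of 33 lay below 0.

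Insig1 had the lowest adjusted p of the 33. Its contralateral SNI libraries ran from 127 to 159 CPM with a median of 141 CPM, and the ipsilateral SNI libraries from 105 to 129 CPM with a median of 119 CPM. The ranges overlapped by little. The log2 difference was -0.26 ± 0.047 (adjusted p = 0.000834). Stard4 (ENSMUSG00000024378, chromosome 18, 33199355 to 33213862, minus strand) ran from 62.7 to 72.8 CPM contralaterally and from 52.01 to 61.0 CPM ipsilaterally, so the groups did not overlap. Its difference was -0.26 ± 0.058 (adjusted p = 0.00819). Elovl6 had 109.5 to 127 CPM against 101 to 109 CPM, likewise without overlap, and a difference of -0.23 ± 0.042 (adjusted p = 0.00156). Among all genes, 205 lay below in all 6 libraries in this way (1.14%), and among the members these 2 did. Idi1 ran from 31.4 to 36.999 CPM contralaterally against 26.7 to 33.2 CPM ipsilaterally, with a difference of -0.21 ± 0.048 (adjusted p = 0.00805).

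The other 6 genes passed by a smaller margin. Acat2 (ENSMUSG00000023832, chromosome 17, 12942890 to 12960747, minus strand) had 53.9 ± 5.17 CPM (SD, n = 6) contralaterally and 46.6 ± 4.04 CPM ipsilaterally, a log2 difference of -0.21 ± 0.056 (adjusted p = 0.026). Nsdhl (ENSMUSG00000031349, chromosome X, 72918557 to 72958514, plus strand) had 37.3 ± 2.08 and 33.02 ± 2.78 CPM (adjusted p = 0.0359). Fdft1 (ENSMUSG00000021273, chromosome 14, 63145150 to 63179578, minus strand) had 110.5 ± 6.19 and 99.8 ± 5.49 CPM (adjusted p = 0.0405). In each of these 3 the library ranges overlapped. Insig2 (ENSMUSG00000003721, chromosome 1, 121304353 to 121332589, minus strand) had 58.7 ± 5.03 and 52.3 ± 2.43 CPM (adjusted p = 0.045). Cyp51 and Msmo1 had log2 differences of -0.14 ± 0.042 (adjusted p = 0.0478) and -0.17 ± 0.051 (adjusted p = 0.0498). Acly, at -0.41 ± 0.12, had the lowest value of the 33 but was not called (adjusted p = 0.0539), with 353 to 542 CPM contralaterally and 252 to 381 CPM ipsilaterally.

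Idi1, Insig1, Stard4 and Elovl6 were called with any 1 of the 24 libraries left out. The count of called members was 6 without male SNI library 1 of either side or male ipsilateral sham library 2. It was 5 without female SNI library 2 of either side or male ipsilateral SNI library 2. It was 4 without ipsilateral female SNI library 1, or without library 3 of male or female SNI of either side. Without contralateral female SNI library 1 it was 13. Motor neuron markers moved the same way as these genes: 7 of 8 lay below 0 and 4 were called lower (median -1.54), with sums of 90.9 to 352 CPM ipsilaterally and 246 to 605 CPM contralaterally. With the mean motor neuron marker level as a covariate, 6 of 18058 genes were called lower, against 594 without it. No member was called in that fit, and the median over the members was -0.0051, against -0.007 over all genes tested. Insig1 then had a log2 difference of -0.19, Idi1 -0.21, Elovl6 -0.18 and Stard4 -0.16, with adjusted p from 0.181 to 0.505, whereas Acat2 had -0.026. Oligodendrocyte markers did not move with the members here, with 11 of 12 above 0 (median 0.062, none called). Of the neuron markers 7 of 8 lay below 0, with Snap25 and Nefl called lower. Dorsal horn neuron markers lay above 0 for 10 of 10 with 6 called higher (median 0.41), and microglial markers were called higher for 9 of 9 (median 1.21). The part of these cell types in the members' difference was not tested beyond the covariates.

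On the contralateral side, limma called 0 of 17580 genes between SNI and sham libraries (0%), as did limma voom, and no member had an unadjusted p under 0.05. The members nevertheless lay slightly above 0 in 31 of 33 cases, with a median of 0.041 against 0.0018 over all genes. Acly was highest at 0.18 ± 0.12 and Srebf1 next at 0.15 ± 0.087, neither called. The share of all genes above 0 was not counted. Motor neuron markers lay above 0 for 8 of 8 (median 0.45, none called). With their mean level as a covariate, 17 of 33 members lay below 0, with a median of -0.0034. With the blood markers 15 lay below 0 (median 0.011), and with the oligodendrocyte markers 1 did (median 0.054). In sham mice limma and voom called 0 of 18058 genes between the sides (0%), no member had an unadjusted p under 0.05, and the members' median was 0.018. Insig1 had -0.073 ± 0.047, Elovl6 -0.076 ± 0.042, Stard4 -0.042 ± 0.058 and Idi1 0.013 ± 0.048 in that comparison.

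Whether the response to SNI differed between sides was tested as an interaction over all 24 libraries. It called 115 genes, of which 1 was lower (0.00554%), and no member. The interaction was below 0 for 28 of 33 members, with a median of -0.12 against 0.0002 over all genes. An unadjusted p under 0.05 was found for 10 members, and the share of all genes at that cut was not counted. Msmo1 had -0.23 ± 0.071 (adjusted p = 0.28), Idi1 -0.23 ± 0.068 (adjusted p = 0.242), Stard4 -0.22 ± 0.082 (adjusted p = 0.634) and Insig1 -0.19 ± 0.066 (adjusted p = 0.456). The comparisons with sham, between sides and of the interaction share libraries, so their values are given side by side and are not independent of each other.

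**Figure D3:**
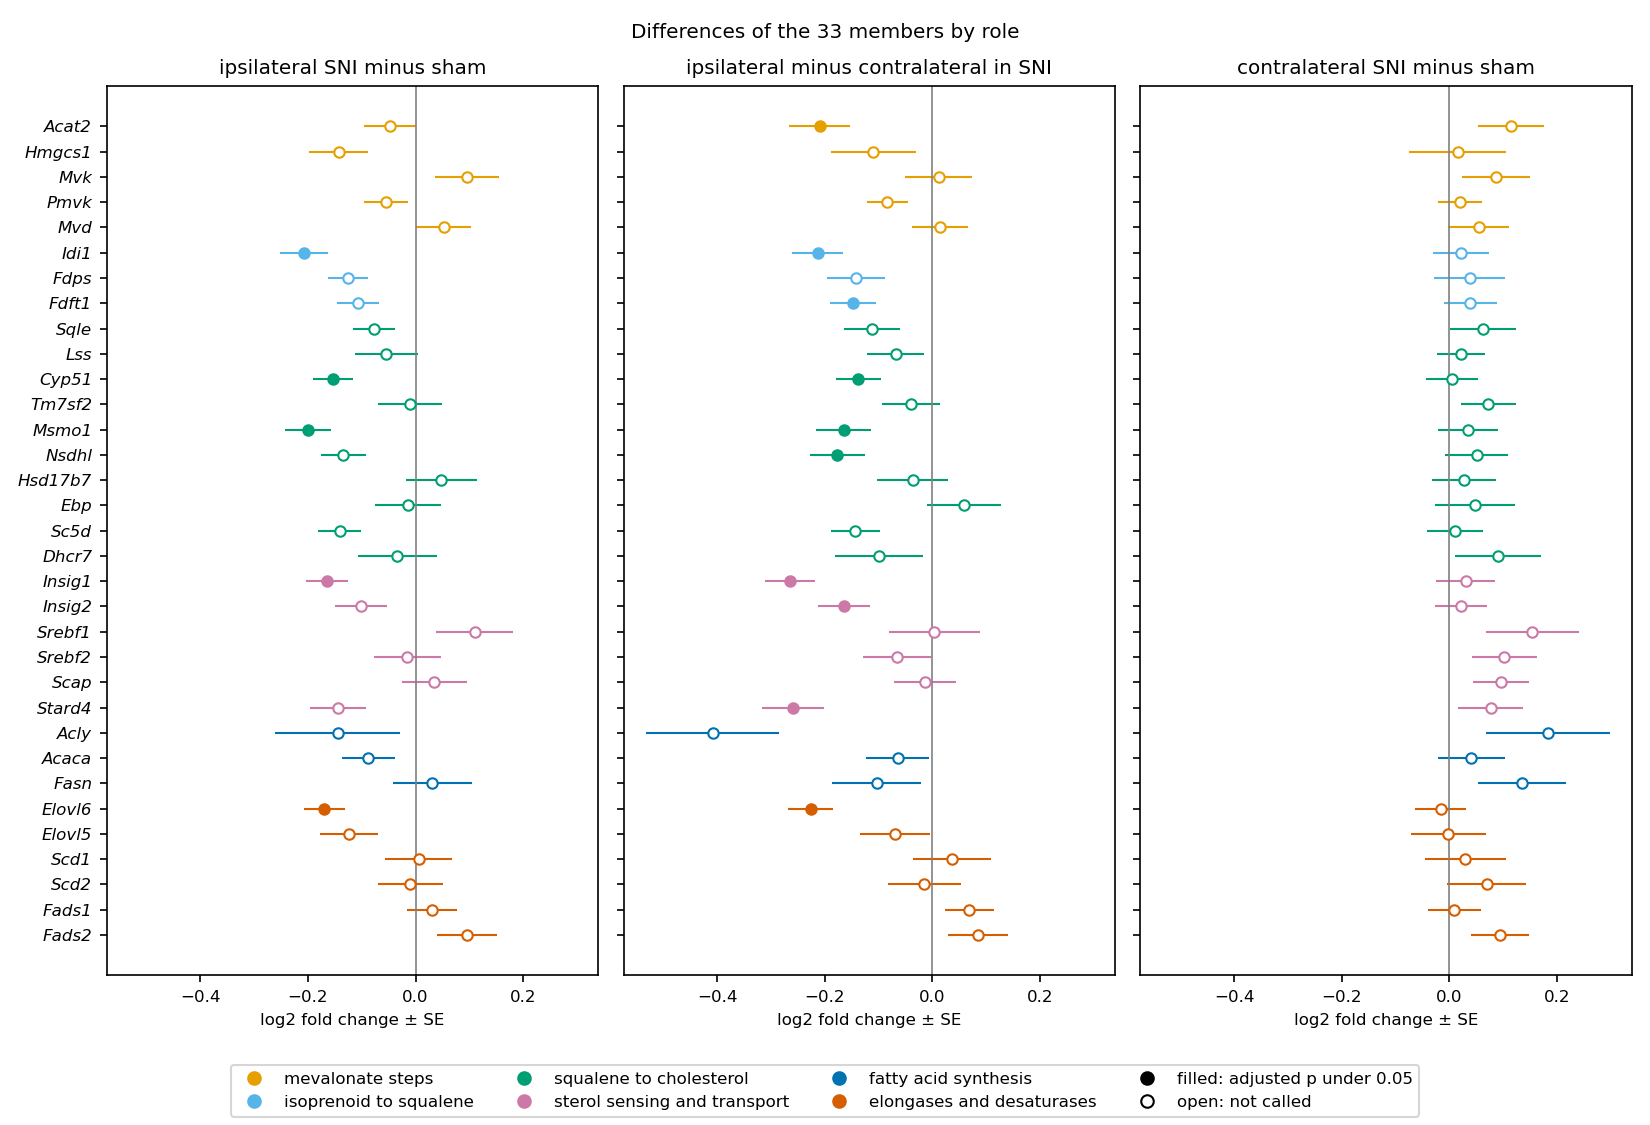
Log2 fold change with SE of the 33 members, ordered by role, on the operated side after SNI against sham (left), between sides in SNI (middle) and on the contralateral side after SNI against sham (right); filled points have an adjusted p under 0.05. Filled points number 5 on the left, 10 in the middle and 0 on the right.

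Each sex was also compared with its own sham libraries on the operated side. In females 31 of 33 lay below 0 (median -0.12), and Insig1 was called at -0.27 ± 0.055 (adjusted p = 0.0496), against 2 genes called lower among all tested (0.0114%). With 1 library left out, that call was kept only without female SNI library 3, and the adjusted p over the 12 such fits ran from 0.0386 to 0.211 with log2 fold changes from -0.31 to -0.23. Of 12 other alternatives 3 kept it, and their adjusted p ran from 0.0206 to 0.938. In males 17 of 33 lay below 0 (median -0.013) and no member was called, against 19 genes called lower (0.108%). An unadjusted p under 0.05 was found for 8 members in males and 16 in females, without a count over all genes. Insig1 lay below 0 in both sexes, nearer to 0 in males. Idi1, Msmo1, Cyp51 and Elovl6 also lay below 0 in both, with male values of -0.17 ± 0.063, -0.16 ± 0.061, -0.14 ± 0.053 and -0.17 ± 0.054. Their female values were -0.25 ± 0.063, -0.24 ± 0.061, -0.17 ± 0.053 and -0.16 ± 0.054.

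The test of the difference itself called 0 of 17602 genes (0%) in limma and in voom. The members' difference, male minus female, was above 0 for 29 of 33 with a median of 0.13, against 0.0014 over all genes. Of the members 6 had an unadjusted p under 0.05, a cut at which all genes were not counted. Hsd17b7 had the highest, at 0.51 ± 0.13 (adjusted p = 0.431). Male sham libraries held 44.3, 37.5 and 40.2 CPM of Hsd17b7 and male SNI libraries 52.2, 44.6 and 54.6 CPM. Female sham libraries held 43.9, 40.5 and 41.4 CPM, and female SNI libraries 31.7, 40.3 and 36.99 CPM. In males the lowest SNI library (44.6 CPM) lay just above the highest sham library (44.3 CPM). In females the highest SNI library (40.3 CPM) lay just below the lowest sham library (40.5 CPM). How many of all genes separate so with 3 libraries a group was not counted, and Hsd17b7 was chosen after its values were seen. Dhcr7 had 0.38 ± 0.15, Mvk 0.36 ± 0.12, Mvd 0.27 ± 0.10, Sqle 0.25 ± 0.078 and Insig1 0.21 ± 0.078, none of them called.

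Markers of other cell types were tested for the same difference between the sexes. The interaction of the 8 motor neuron markers was above 0 for 8 of 8 (median 1.68, none called). On the operated side, female libraries held summed levels of 425, 184 and 251 CPM after sham and 90.9, 177 and 133 CPM after SNI. Male libraries held 461, 172 and 155 CPM after sham and 316, 288 and 352 CPM after SNI. Other lists lay above 0 as well, none of their genes called: oligodendrocyte markers for 12 of 12 (median 0.13), endothelial markers for 5 of 5 (median 0.33), meningeal fibroblast markers for 6 of 6 (median 0.60), Schwann cell markers for 5 of 5 (median 0.10), microglial markers for 9 of 9 (median 0.19) and blood markers for 8 of 9 (median 0.42). Dorsal horn neuron markers lay below 0 for 8 of 10 (median -0.31). With a term for the title numbers 49 to 56, the members' median interaction was 0.060. The part of these markers and title numbers in the difference was not tested further. Over both surgeries, male against female ipsilateral libraries gave 28 called genes of 17602 (0.159%) and no called member. Of 33 members 30 lay above 0, with a median of 0.094. An unadjusted p under 0.05 was found for 13, without a count over all genes.

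**Figure D4:**
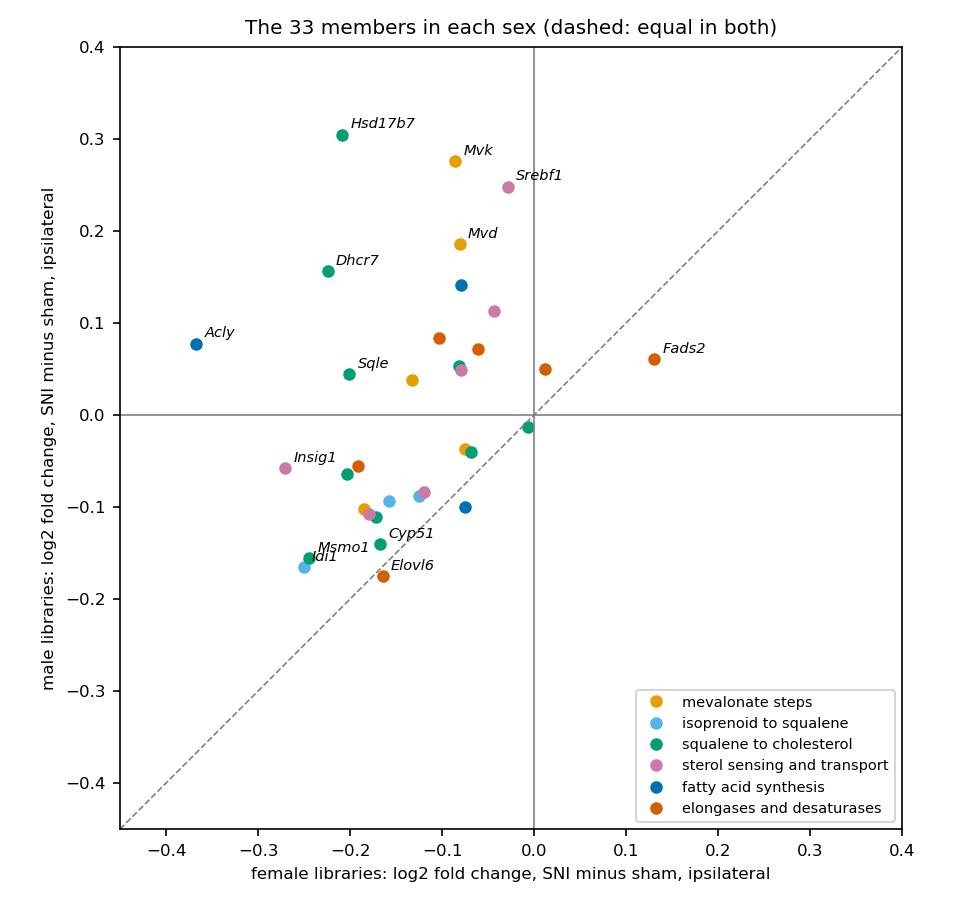
Log2 fold change of SNI against sham on the operated side, female libraries on the horizontal and male libraries on the vertical axis, with 1 point per member coloured by role; the dashed line marks equal values. Of the 33 points, 31 lie left of 0 and 17 lie below 0, and Hsd17b7 lies farthest from the line.

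Seen per library, the median deviation of the 33 genes from their mean over 24 libraries ran from -0.21 to 0.13 on the log2 scale in ipsilateral SNI libraries. Ipsilateral sham libraries ran from -0.021 to 0.069, contralateral sham libraries from -0.13 to 0.059 and contralateral SNI libraries from -0.066 to 0.12. The ipsilateral SNI group had both the lowest and the highest library, and the groups overlapped. Its female libraries stood at -0.21, -0.10 and -0.13, and its male libraries at -0.034, 0.022 and 0.13.

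**Figure D5:**
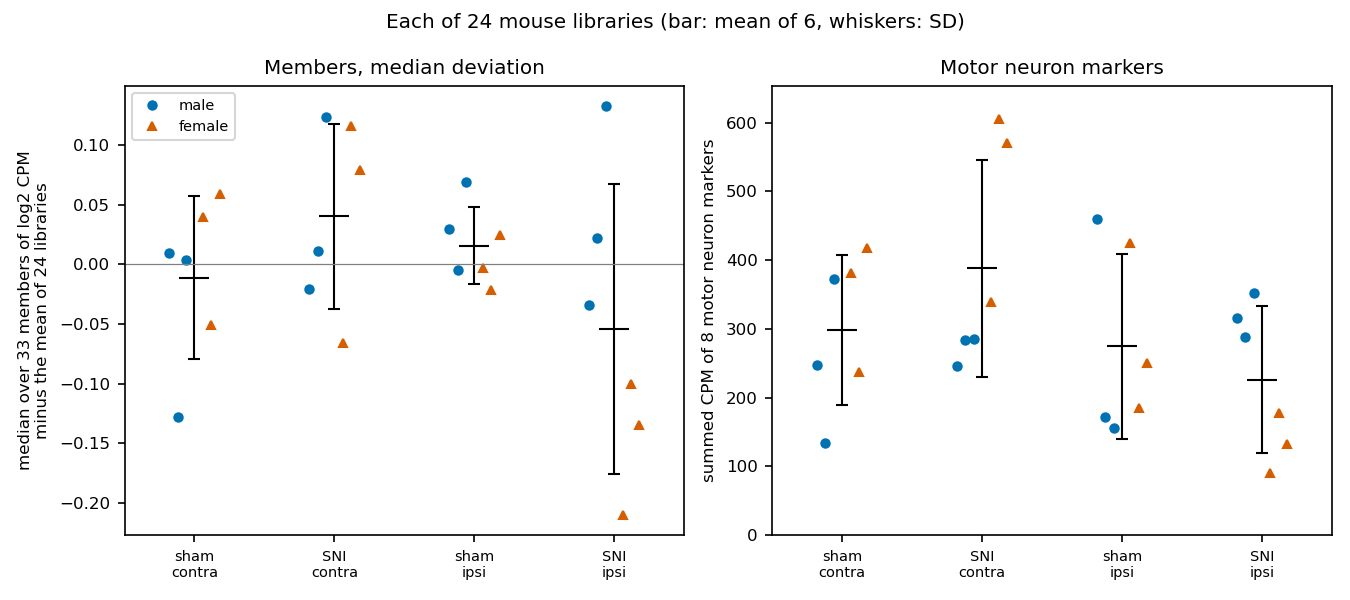
Left, the median over the 33 members of log2 CPM minus the gene's mean of 24 libraries; right, summed CPM of 8 motor neuron markers; each point is a library (circles male, triangles female), bars are means of 6 and whiskers SD. The 3 female ipsilateral SNI libraries lie at -0.21, -0.10 and -0.13 on the left and at 90.9, 177 and 133 CPM on the right.

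Genes that surround the pathway were read from 5 further lists. Of 19 genes of sterol transport, storage and efflux, 2 were called higher on the operated side after SNI and none lower. Among all 17602 genes tested there, 365 were called in either direction, 23 of them lower. Abca1, which exports cholesterol to lipoproteins, had a log2 fold change of 0.62 ± 0.078 (adjusted p = 0.000496). Mylip, a ubiquitin ligase that degrades lipoprotein receptors, had 0.36 ± 0.055 (adjusted p = 0.00142). Both are known targets of the sterol-activated liver X receptors. The receptor genes Nr1h2 and Nr1h3 were not called, at 0.0049 ± 0.037 and 0.074 ± 0.11. Abcg1 at 0.058 ± 0.045 and Apoe at 0.13 ± 0.051 were not called against sham either. Microglial markers were called higher for 8 of 9 genes in the same libraries. The part of these receptors or of microglia in the rise was not tested. Between sides in SNI, 4 of the 19 genes were called higher, against 3.56% of all genes. Abca1 and Mylip were called again, at 0.64 ± 0.068 and 0.39 ± 0.062. The lipoprotein Apoe had 0.25 ± 0.047 (adjusted p = 0.00201) and the acyltransferase Lcat 0.44 ± 0.079 (adjusted p = 0.00121).

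Of 20 further genes of fatty acid synthesis, 2 were called higher against sham, where 365 of 17602 genes were called in either direction. Mlxipl, which encodes the glucose-responsive factor ChREBP, had 0.61 ± 0.096 (adjusted p = 0.00168). Fads3, a sphingoid base desaturase, had 0.40 ± 0.056 (adjusted p = 0.000669). Between sides in SNI the same 2 were called higher, and 3 elongation genes were called lower, against 3.56% and 3.29% of all genes. The 3 were Elovl4 at -0.21 ± 0.053 (adjusted p = 0.0181), Tecr at -0.15 ± 0.039 (adjusted p = 0.0196) and Hsd17b12 at -0.15 ± 0.045 (adjusted p = 0.0394). The list of SREBP processing and reductase turnover had 0 of 11 called against sham, where Aup1 had 0.099 ± 0.042 and Fbxw7 -0.095 ± 0.045. Between sides Fbxw7, part of a ubiquitin ligase for nuclear SREBP, was called lower at -0.19 ± 0.047 (adjusted p = 0.0132). Isoprenoid branch genes had 0 of 10 called against sham, with Fnta at -0.095 ± 0.037 and Ggps1 at -0.070 ± 0.047. Myelin sphingolipid genes had 0 of 9 called, with Degs1 at -0.10 ± 0.039 and Ugt8a at -0.17 ± 0.079.

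Some members share sequence with other annotated genes. The count tables keep reads without a unique alignment (9.92% to 12.84% of all entries) and ambiguous reads apart from the genes. Reads from shared sequence may therefore be missing from the counts of these members. The share of 50-base windows of the longest coding transcript that also occur in another gene was 86.4% for Fdps (Gm43738), 52.6% for Acaca (Gm5182), 45.9% for Acat2 (Acat3), 30.7% for Fdft1 (Ctsb) and 30.5% for Idi1 (Gm13502). Fdft1 shares its windows with Ctsb through exons on the opposite strand, and the strand setting of the counting is not given in the sources used here. For Insig1, Stard4, Msmo1, Nsdhl, Insig2, Cyp51 and Elovl6 the share was 5% or less.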

How the data were processed

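The authors deposited 1 table per library with raw read counts per Ensembl gene; all values were whole numbers. Per the submitters' processing notes the aligner was STAR and the builds were GRCm38, mm10 and Rnor_6.0; the counting program, strand setting and annotation release are not stated in those notes. Because the tables use tabs under a comma-separated name, the format check could not read them as counts, and a test on log2 values replaced a count model. Entries that name no gene were left out of library sizes, and gene reads made up 71.4% to 76.2% of all entries.

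From the counts, CPM were computed with trimmed-mean-of-M-values scaling (30% of ratios and 5% of levels trimmed; factors 0.95 to 1.041). Genes were kept with at least 10 counts, scaled to the median library, in 3 libraries and at least 15 in all. Log2 CPM with a prior count of 2 were analysed by limma's trend method with robust moderation (limma 3.58.1 under R 4.3.3), over 12 libraries of 1 side or all 24. Errors of log2 fold changes are SE. Genes were called at a Benjamini-Hochberg adjusted p under 0.05 over all genes. Counts at an unadjusted p under 0.05 cover members and markers only and were not set against the share of all genes. Symbols were matched for 40340 of 41388 identifiers (99.87% of gene reads) and positions are GENCODE's on GRCm38. The 24 within-group library pairs gave chi-square values of 6.1 to 31.4 per degree of freedom, so none was treated as a duplicate. The fit was also run on simulated counts. Their changes were larger than those of the called members and their spread was set alike for all genes, so that run does not bear on these calls.

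The members and all lists were chosen with earlier results of these data known. Each member is named with its ipsilateral value, members called in any comparison are given by library, and of each surrounding list the called genes, or otherwise the 2 of lowest p, are named. Acly, Hsd17b7 and other members with values by library or by sex outside this rule were chosen after their values were seen. Alternatives were other scaling, filters, prior count, voom, title-number terms, marker covariates and leaving out each library. Tables were read in Python 3.11.15 (pandas 2.3.3, numpy 2.4.6) and plots were drawn with matplotlib 3.10.9.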

Additional observations from a re-analysis of the deposited data

How the results depend on the processing

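The labels carry no replicate numbers and tie no library to an animal, so no pairing rests on them. The members' median kept its sign in each comparison under all alternatives except the contralateral comparison and the comparison of sides in sham, whose medians lay near 0. Counts of called members moved more. For SNI against sham on the operated side (5 called), the count was 0 with library totals only, 2 with no filter on low counts, 0 with only titles 33 to 48 (median -0.10), 1, 0 and 0 with oligodendrocyte, motor neuron and blood markers as covariate, 3 with all 24 libraries in 1 fit, and 0 to 4 with a library left out. For the sides in SNI (10 called), it was 5 with library totals only, 5 with no filter, 0 with only titles 33 to 48, 0 with the motor neuron covariate (median -0.0051), 4 with the blood covariate, and 4 to 13 with a library left out. The interaction of side and surgery had a median of -0.025 with the motor neuron covariate, and 1 called member (Idi1, adjusted p = 0.0493) with consecutive titles as a block. That block called 13 members between the sides in SNI, and 2365 genes. The sex interaction had a median of 0.060 with a term for titles 49 to 56. On the operated side 266 to 433 genes were called with a library left out and 67 to 418 under the other alternatives. Library totals only gave 6 lower of 400, against 23 of 365. Only titles 33 to 48 left 2 genes lower there, and the oligodendrocyte, motor neuron and blood covariates left 37, 1 and 2. Between the sides in SNI, 594 genes were called lower. Library totals only gave 355 such genes, no filter 393 and only titles 33 to 48 gave 2. The motor neuron covariate gave 6 and the blood covariate 333. The cause of these moves was not tested. With 3 libraries a group, differences of the size seen here sit near the threshold, and a member that was not called is not shown to be unchanged.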
